A study of Mus musculus with 4 samples.

Results

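Acute phase genes and genes of the oncostatin M and interleukin 6 (IL-6) response were followed in heart sections of infarcted mice. The set holds 9 genes, Saa3, Hp, Lcn2, Serpina3n, Il6, Osmr, Socs3, Stat3 and Il4ra, which were found by symbol among the 32285 genes of the count tables. All 9 had UMIs (unique molecular identifiers, 1 for each captured mRNA molecule) in every section. The samples were Visium sections of whole hearts from adult ICR mice, 1 mouse and 1 section at each of days 1, 4, 7 and 14 after myocardial infarction (MI), for which the left anterior descending coronary artery was tied off for good, and there was no uninjured heart. Female mice of 12 weeks were used, with no transgene and no treatment named, and the fresh-frozen sections were 10 µm thick. In Visium, each barcoded spot on the slide collects RNA from the several cells above it, so a spot is a small piece of tissue and not a cell.

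IL-6 and oncostatin M are cytokines that bind receptor complexes sharing the subunit gp130 (Il6st). The receptors activate JAK kinases and the transcription factor STAT3, which switches on its own inhibitor SOCS3 and many genes of the acute phase response. The acute phase response is best known from the liver, where it fills the blood with serum amyloid A, haptoglobin and protease inhibitors, but injured tissues make some of these proteins themselves. In the injured heart, cardiomyocytes are known to respond to oncostatin M through its receptor OSMR.

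Saa3 encodes a serum amyloid A made mainly outside the liver, Hp encodes haptoglobin, which binds free hemoglobin, Lcn2 encodes lipocalin 2, which keeps iron from bacteria, and Serpina3n encodes a secreted protease inhibitor. Il4ra encodes the subunit shared by the IL-4 and IL-13 receptors. On mm10 (GRCm38), GENCODE vM21 places Saa3 on chromosome 7 from 46711998 to 46715700, Hp on chromosome 8 from 109575128 to 109579172, and Lcn2 on chromosome 2 from 32384633 to 32388252. Serpina3n lies on chromosome 12 from 104406729 to 104414329, Il6 on chromosome 5 from 30013114 to 30019981, and Osmr on chromosome 15 from 6813577 to 6874969. Socs3 and Stat3 share chromosome 11, from 117966079 to 117970047 and from 100885098 to 100939540, and Il4ra lies on chromosome 7 from 125552120 to 125579474. All are protein-coding genes, and Visium reads tag the 3' end of their mRNAs. Saa3 and Serpina3n belong to families of near relatives, and whether reads were shared with them was not tested.

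The 250 bases before the RefSeq start site were searched for motifs of 3 factors of this response, since the members are compared below as one pathway. RefSeq's promoter table (GRCm38.p6) held 8 of the 9 members, all but Hp. The STAT motif TTCNNNGAA, which reads the same on both strands, stood in 7.02% of the 32851 promoters of the table. The C/EBP motif TTNNGNAAT, searched on both strands, stood in 10.2%, and the NF-kappaB motif GGGANTTTCC, also on both strands, in 0.356%. Of the 8 members, 3 held a match. The windows of Osmr (250 of 250 bases), Lcn2 (197), Il4ra (151), Socs3 (77) and Saa3 (24) overlap exons of other GENCODE transcripts, so these windows may not lie before the start site in use. Il6 had a C/EBP match from -128 to -120 and an NF-kappaB match from -44 to -35 of the start site. Serpina3n had C/EBP matches on the opposite strand from -228 to -220 and from -57 to -49, and Socs3 had a STAT match from -154 to -146. A match is a run of letters and not a measured binding site. The 3 sequences are shown because they hold these matches, each written 5' to 3' on the gene's own strand with the matches in capitals. For Il6 the region is chr5:30012864-30013113 (plus strand), for Serpina3n chr12:104406458-104406707 (plus strand), and for Socs3 the 30 bases around the match at chr11:117969501-117969530 (minus strand).
Il6: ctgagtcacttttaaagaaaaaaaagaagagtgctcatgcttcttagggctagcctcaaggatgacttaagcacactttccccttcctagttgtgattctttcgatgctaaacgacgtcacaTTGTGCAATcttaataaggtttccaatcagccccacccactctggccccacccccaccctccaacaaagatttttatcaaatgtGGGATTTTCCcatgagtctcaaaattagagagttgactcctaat
Serpina3n: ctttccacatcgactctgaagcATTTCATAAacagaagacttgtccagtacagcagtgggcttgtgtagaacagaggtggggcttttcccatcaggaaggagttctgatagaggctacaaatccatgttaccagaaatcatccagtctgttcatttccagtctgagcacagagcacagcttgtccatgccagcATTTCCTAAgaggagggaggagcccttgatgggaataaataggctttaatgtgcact
Socs3: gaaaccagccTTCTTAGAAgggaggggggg

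Blood-rich spots, in which the 8 hemoglobin genes held over 1% of the UMIs, were left out, and 7503 of 9102 spots were kept. The kept spots held between 9292678 (day 7) and 15713779 UMIs (day 14) per section, with a median of 5188 to 8799 UMIs per spot. Levels are in CPM, the gene's UMIs per 1000000 UMIs of the section or group of spots, and their 95% intervals are exact Poisson intervals that cover counting error only. Each day is 1 mouse, so differences between days include the difference between mice and were not tested. The first section is labelled day 1, and this day was used although another part of the study's text names day 2. Cardiomyocyte genes were abundant in every section. Of the hepatocyte genes looked at, Alb had 1 UMI in all 4 sections together. Apoa1 and Apoa2 had at most 4 UMIs per section, Ttr 2 to 11 and Ahsg 8 to 22. The day 7 section held 118 spots with skeletal muscle genes.

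The members had different time courses, with 6 of them highest on day 1. Of all 11621 genes with at least 100 UMIs, 24.2% were highest in the day 1 section. Lcn2 had 106 CPM (95% interval 101 to 112), 8.64 (7.19 to 10.3), 2.69 (1.74 to 3.97) and 3.37 CPM (2.53 to 4.41) in the sections of days 1, 4, 7 and 14. It was thus high in the day 1 section only, where its level was 12.3 times that of day 4 (95% interval of the ratio 10.2 to 14.9). Serpina3n had 116 (110 to 122), 66.0 (61.9 to 70.3), 25.6 (22.5 to 29.1) and 11.5 CPM (9.90 to 13.3) in the same order of days. Its intervals on the 4 days did not overlap, and the day 1 level was 10.1 times that of day 14 (8.62 to 11.8).

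Il6, the cytokine, was rare. Its 63, 41, 5 and 2 UMIs in the sections of days 1, 4, 7 and 14 are 5.27 (4.05 to 6.74), 2.86 (2.05 to 3.88), 0.538 (0.175 to 1.26) and 0.127 CPM (0.0154 to 0.46). The days 1 and 4 lay above the later days, whose intervals overlapped each other. Osm, which encodes oncostatin M, had 11, 10, 0 and 6 UMIs on days 1, 4, 7 and 14, too few for a test. A count of 0 on day 7 allows up to 0.323 CPM.

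The receptor Osmr had 36.5 (33.1 to 40.1), 27.0 (24.4 to 29.9), 25.9 (22.8 to 29.4) and 11.7 CPM (10.1 to 13.5) in the sections of days 1, 4, 7 and 14. Days 4 and 7 could not be told apart within counting error. Il4ra had 44.1 (40.4 to 48.0), 44.8 (41.4 to 48.4), 37.4 (33.6 to 41.6) and 12.7 (11.0 to 14.6) CPM on the same days. It was level over days 1 and 4 and 3.48 times higher on day 1 than on day 14 (2.95 to 4.12). Stat3 had 103 (97.7 to 109), 78.9 (74.4 to 83.6), 78.9 (73.3 to 84.8) and 62.9 (59.0 to 66.9) CPM, with the smallest ratio of highest to lowest section among the 9 genes. The feedback inhibitor Socs3 ran from 27.7 (24.8 to 30.8) on day 1 over 13.5 (11.7 to 15.6) and 12.2 (10.0 to 14.6) to 2.67 (1.93 to 3.61) on day 14. Socs3 thus fell by more than Stat3 between the whole sections of day 1 and day 14, at 10.4 (7.50 to 14.6) against 1.64 times (1.51 to 1.79). Such falls depend on the spots summed. In the decile of spots with the lowest Myh6 and Myl2 share, Socs3 had 51.7 CPM on day 1 and 65.5 on day 14, and Stat3 143 and 147. Serpina3n (102 and 334), Osmr (63.5 and 101), Il4ra (116 and 219) and Saa3 (52.7 and 1899) were also higher there on day 14. Hp (296 and 272), Lcn2 (124 and 55.7) and Il6 (26.9 and 6.55) were lower.

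Hp and Saa3 did not follow the other members. Hp had 32.9 (29.7 to 36.3), 41.5 (38.2 to 44.9), 46.6 (42.3 to 51.2) and 7.32 CPM (6.04 to 8.78) in the sections of days 1, 4, 7 and 14. Its days 4 and 7 overlapped, and day 14 was the lowest. Saa3 had 12.0 (10.2 to 14.2), 10.0 (8.46 to 11.8), 24.1 (21.1 to 27.5) and 41.9 (38.8 to 45.3) CPM, and was the one member highest on day 14, at 3.48 times its day 1 level (2.90 to 4.20). These levels depend on leaving out the blood-rich spots. With those spots Saa3 had 1003 UMIs in place of 659 on day 14 and 148 in place of 144 on day 1, a wider gap. Only 8.6% of the 11621 genes were highest on day 14. In all, 7 of the 9 members were over 2 times higher on day 1 than on day 14, as were 9.34% of all genes, the exceptions being Stat3 and Saa3. With the mean share per spot in place of summed UMIs, which gives shallow spots the same weight as deep ones, 4 members were, Lcn2 (16.2), Il6, Serpina3n (2.63) and Socs3 (2.47), and not Hp (1.77), Osmr (1.76) or Il4ra (1.38). The percentages of all genes given here are from summed UMIs. They were not computed for the mean share per spot, so the member counts by that measure have no such value beside them. With summed UMIs, the same 7 were over 2 times higher on day 4 than on day 14, as were 14.1% of all genes. With the mean share per spot, of these only Il6 was (3.22 against 0.933 CPM, the latter from 2 UMIs). Hp (68.5 against 39.9), Lcn2 (10.3 against 6.31) and Serpina3n (82.8 against 44.1) were not. Nor were Osmr (30.8 against 20.8), Socs3 (18.0 against 11.3) and Il4ra (57.6 against 34.7). Over 2 times higher on day 1 than already on day 4 were 2 members by summed UMIs, Lcn2 and Socs3, beside 1.78% of all genes. By the mean share per spot only Lcn2 was (102 against 10.3 CPM), and not Socs3 (27.8 against 18.0).

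**Figure D1:**
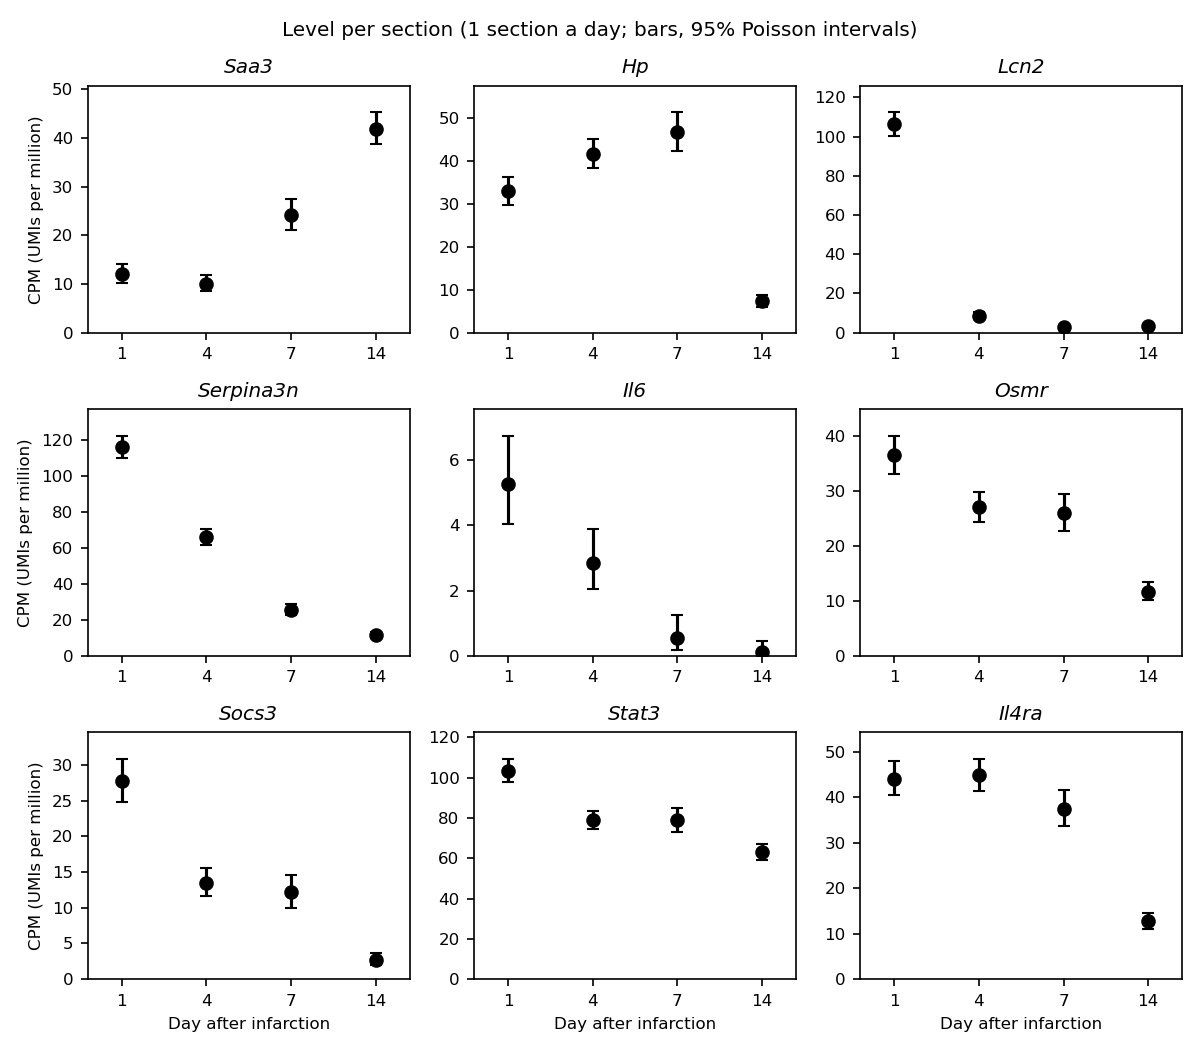
Level of each member in CPM (y axis, starting at 0) in the section of each day after infarction (x axis); points are the level of the 1 section and bars its exact Poisson 95% interval. Lcn2 is high on day 1 only (106 against at most 8.64 later), whereas Saa3 is highest on day 14 (41.9).

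To place the members in the tissue, the spots of each section were ranked by their share of Myh6 and Myl2 UMIs, which encode myosin chains of cardiomyocytes, and cut into quartiles. The 6 other cardiomyocyte genes Tnnt2, Tnni3, Actc1, Mb, Ryr2 and Atp2a2 summed to 26759, 9952, 7704 and 34407 CPM in the lowest quartile on days 1, 4, 7 and 14 and to 49239.5, 43472, 47150.4 and 46737 in the highest. The lowest quartile, called myosin-poor here, thus held much cardiomyocyte RNA on days 1 and 14. UMIs were summed per section and quartile, and edgeR's quasi-likelihood test compared the quartiles over the 4 sections with the section as a block, with Benjamini-Hochberg adjustment over 11615 genes. All 9 members were called higher in the myosin-poor quartile at an adjusted p under 0.05. Il6 had 95 of its 111 UMIs there and would not have reached the minimum of 100 UMIs otherwise, so its call was bound to be in this direction, and the count without it is 8 of 8. Of all genes tested, 27.6% were called higher (3204), 25.0% lower (2902) and 52.6% in either direction. The median log2 fold change was 2.75 over the 8 other members and 0.07 over all genes. With scaling to total UMIs in place of TMM (trimmed mean of M values) the median of all genes moved to 0.71 and the calls to 6762 higher and 1235 lower, and all 9 members were again called higher. Fewer cells of a type and less RNA per cell cannot be told apart in these sums.

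Saa3 had 30.3, 45.0, 113 and 292 CPM in the myosin-poor quartile on days 1, 4, 7 and 14, and 1.38, 1.05, 1.15 and 4.76 in the myosin-rich quartile. The groups were far apart in each section, with a log2 fold change of 5.03 ± 0.72 (SE, 4 sections; edgeR adjusted p = 0.000115). Hp had 125, 163, 245 and 43.7 CPM against 2.75, 4.48, 2.30 and 2.85, a log2 fold change of 4.71 ± 0.39 (edgeR adjusted p = 1.9e-06). In the myosin-rich quartile, Hp thus stayed between 2.30 and 4.48 CPM, while in the myosin-poor quartile it ranged from 43.7 to 245. Il6 had 50, 39, 4 and 2 UMIs in the myosin-poor quartile and none in the myosin-rich quartile of any section. Set against the 3 UMIs that a count of 0 allows per section, it was 17.7-fold higher on day 1 and 17.9-fold on day 4. The exact interval of the ratio, which also covers the counting error of the myosin-poor UMIs, began at 13.9 on days 1 and 4.

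Socs3 had 65.4, 48.9, 47.6 and 12.0 CPM in the myosin-poor quartile and 4.82, 2.63, 3.84 and 1.19 in the myosin-rich quartile, a log2 fold change of 3.17 ± 0.30 (edgeR adjusted p = 2.89e-06). Il4ra had 104, 152, 97.3 and 46.5 against 12.4, 12.4, 16.1 and 7.85 CPM, and rose by 2.35 ± 0.27 on the log2 scale (edgeR adjusted p = 1.48e-05). Osmr had 68.3, 70.7, 47.6 and 31.7 against 11.4, 9.75, 17.7 and 10.7 CPM, a log2 fold change of 1.45 ± 0.29 (edgeR adjusted p = 0.000743). In all 4 sections these 3 signalling genes were higher in the myosin-poor quartile beyond counting error. Stat3 had 145, 139, 131 and 82.5 against 61.9, 59.8, 64.1 and 57.3 CPM. Its log2 fold change of 0.36 ± 0.14 was the smallest of the 9 (edgeR adjusted p = 0.0461) and was not called when any 1 section was left out (adjusted p 0.0514 to 0.16). The ratios of its CPM values were larger, at 1.23, 1.22, 1.03 and 0.53 on the log2 scale. CPM is scaled to total UMIs and the fit by TMM, so the 2 are not on the same scale.

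Lcn2 and Serpina3n were called too, but their highest quartile on day 1 was the second lowest in myosin. From the lowest to the highest myosin quartile, Lcn2 had 160, 183, 61.7 and 26.1 CPM on day 1, and Serpina3n had 156, 221, 62.3 and 28.6. On day 4 Serpina3n ran 202, 83.6, 12.2 and 11.3, so its maximum then lay in the lowest quartile. Over the 4 sections the log2 fold change was 1.79 ± 0.37 for Lcn2 (edgeR adjusted p = 0.00087) and 3.16 ± 0.56 for Serpina3n (edgeR adjusted p = 0.000459). On day 7 Lcn2 had 5 and 6 UMIs in the lowest and highest quartile, within counting error of each other.

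**Figure D2:**
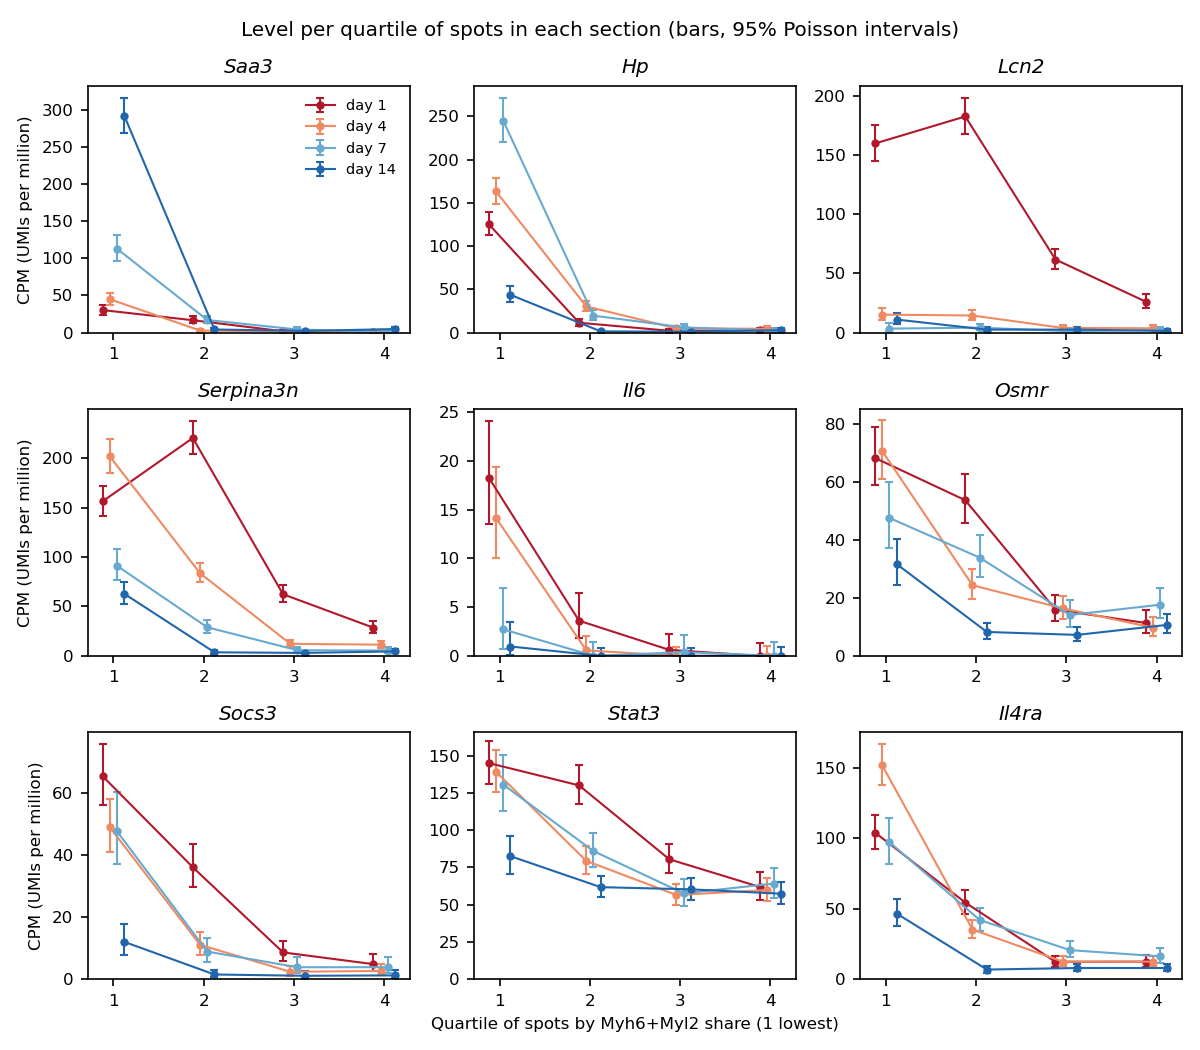
Level of each member in CPM (y axis) in the quartiles of spots ranked by Myh6 and Myl2 share within each section (x axis, 1 the lowest share), with 1 line per day and exact Poisson 95% intervals. All 9 members are higher in quartile 1 than in quartile 4, and Lcn2 and Serpina3n on day 1 are highest in quartile 2 (183 and 221).

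Markers of other cell types were also higher in the myosin-poor quartile. The sum of 8 neutrophil genes, all with UMIs there but Mmp8 on day 7, was 114 to 449 CPM in the myosin-poor and 4.76 to 17.9 in the myosin-rich quartile, where 6 or 7 of the 8 had UMIs. For 8 macrophage genes, all with UMIs, it was 466 to 1741 against 160 to 234 CPM, and for 6 fibroblast genes, all with UMIs, 2170 to 37159.6 against 1122 to 1634. Their part in the members' values was not tested. The myosin-poor quartile also had fewer UMIs per spot on days 4, 7 and 14, with a median of 6524.5, 2826 and 2329.5 against 9221, 5515 and 8278 in the myosin-rich quartile. With spots under 1000 UMIs removed, 8 of the 9 members were still called, Stat3 not (adjusted p = 0.0626).

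A separate ranking used the share of Ankrd1, Flnc, Xirp2 and Nppb, genes that cardiomyocytes raise under mechanical stress. The highest against the lowest stress quartile gave no call among the 9 members, beside 0.827% of all genes tested (96 of 11615 by edgeR). These were 60 higher (0.517%) and 36 lower (0.31%), and with total UMIs 102 higher and 28 lower. Of all genes, 1202 had an unadjusted p under 0.05. DESeq2 called 165 genes, of which Hp was the only member (lower, log2 fold change -2.00, DESeq2 adjusted p = 0.00383). For 5 members the days ran in opposite directions beyond counting error. On day 1 Socs3 had 67.4 CPM in the highest and 4.03 in the lowest stress quartile, a ratio of 16.7 (95% interval 9.39 to 32.9), and on day 7 it had 10.2 against 33.6, a ratio of 0.304 (0.187 to 0.486). Il4ra had 92.2 against 11.4 on day 1, a ratio of 8.08 (5.66 to 11.9), and 42.7 against 67.2 on day 7, a ratio of 0.636 (0.488 to 0.829). Saa3 was 5.61 times higher in the highest stress quartile on day 1 (2.85 to 12.3) but lower there on days 4, 7 and 14, with ratios of 0.136, 0.132 and 0.0507. Lcn2 was the member with the highest log2 fold change, 1.17 ± 0.43 (edgeR adjusted p = 0.332). It had 190, 15.1, 4.38 and 3.60 CPM in the highest and 45.3, 3.52, 1.16 and 7.15 in the lowest stress quartile, with ratios of 4.19 (3.47 to 5.09) on day 1 and 4.29 (2.26 to 8.82) on day 4. Its days 7 and 14 lay within counting error. Osmr was 4.65 times higher (3.37 to 6.56) in the highest stress quartile on day 1 and within counting error on days 4, 7 and 14. Stat3 was higher there beyond counting error on days 1 (2.21, 1.86 to 2.64), 4 (1.36, 1.16 to 1.60) and 14 (interval 1.08 to 1.59), and level on day 7 (0.992, 0.815 to 1.21). Hp did not differ beyond counting error on day 1 (1.15, 0.87 to 1.52) and was lower in the highest stress quartile later, with ratios of 0.516, 0.123 and 0.129.

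Without the day 1 section, edgeR called 4 of the 8 members tested lower in the highest stress quartile. These were Saa3 (edgeR adjusted p = 0.000154), Il4ra (0.00904), Socs3 (0.0182) and Hp (0.0385). Of the 11097 genes tested then, 346 were called lower and 218 higher, 564 in all. Without day 14 edgeR called 1 of 9 members, Lcn2, which was higher (log2 fold change 1.74, edgeR adjusted p = 0.00574). Of the 11076 genes tested then, 28 were called higher and 21 lower.

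The 2 rankings overlapped differently on the 4 days. On day 1, 324 of the 472 spots in the highest stress quartile also lay in the lowest myosin quartile, and on days 4, 7 and 14 130 of 419, 39 of 462 and 162 of 521 did. The lowest stress quartile had 1136 CPM of fibroblast genes on day 1 but 13027, 22820 and 4270 on days 4, 7 and 14. Spots were therefore also split into 4 classes, those in the lowest myosin quartile only (myosin-poor), in the highest stress quartile only (stress-high), in both, or in neither. The classes are ranks within a section. The mean stress gene share of stress-high spots was 12030.5, 5383, 6260 and 2422 CPM on days 1, 4, 7 and 14. In spots of neither quartile it was 1700, 1189, 2213 and 844 CPM. The mean Myh6 and Myl2 share of stress-high spots was 13128, 12508, 19159 and 22890 CPM. In spots of neither quartile it was 23761, 21996, 24356 and 23183 CPM, so the 2 classes were close on day 14.

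**Figure D3:**
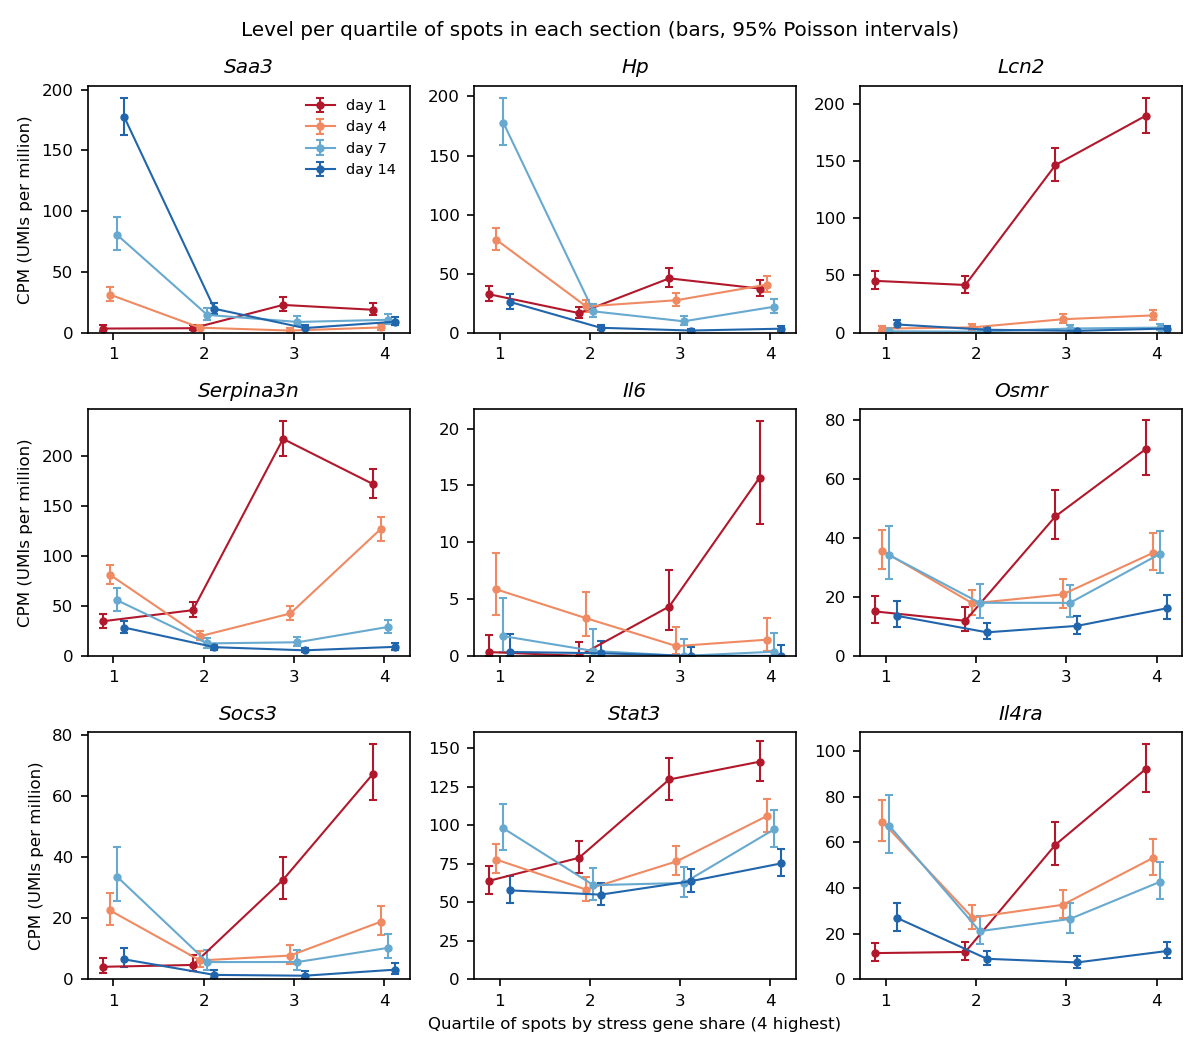
Level of each member in CPM (y axis) in the quartiles of spots ranked by Ankrd1, Flnc, Xirp2 and Nppb share within each section (x axis, 4 the highest share), with 1 line per day and exact Poisson 95% intervals. Socs3 and Il4ra rise towards quartile 4 on day 1 (67.4 and 92.2) and are highest in quartile 1 on day 7 (33.6 and 67.2).

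Directly compared, 5 of the 9 members were lower in stress-high than in myosin-poor spots, or 4 of 8 without Il6, which passed the minimum of UMIs through the quartile these myosin-poor spots come from. This stands beside 13.6% of all genes (1585 lower). Another 14.8% were higher (1720), 28.5% in either direction, and with total UMIs 4398 were lower and 715 higher. Saa3 had 17.1, 2.90, 9.23 and 5.60 CPM in stress-high spots on days 1, 4, 7 and 14 and 68.2, 69.8, 121 and 479 in myosin-poor spots, a log2 fold change of -4.02 ± 0.60 (edgeR adjusted p = 0.0011). Hp had 22.8, 27.7, 19.6 and 1.98 against 413, 225, 264 and 68.2, a log2 fold change of -3.44 ± 0.35 (edgeR adjusted p = 9.93e-05). Both genes were lower in stress-high spots in every section beyond counting error. On day 1, adipocyte genes were at 807 CPM in myosin-poor and 24.7 in stress-high spots, and without the adipocyte-rich spots Hp was still called lower (log2 fold change -2.90, edgeR adjusted p = 0.000103). Il4ra had 76.9, 40.5, 39.2 and 9.56 against 120, 199, 96.1 and 63.4 CPM. It was lower by -1.26 ± 0.25 on the log2 scale (edgeR adjusted p = 0.00284), also in all 4 sections. Socs3 (-1.16 ± 0.37, edgeR adjusted p = 0.0294) had 59.8 CPM in stress-high and 44.9 in myosin-poor spots on day 1, within counting error, and 13.2, 8.08 and 1.65 against 60.8, 47.3 and 14.6 later. Il6 (-2.39 ± 0.69, edgeR adjusted p = 0.0175) rested mainly on day 4, with 2 UMIs in stress-high and 36 in myosin-poor spots. On day 1 it had 9 UMIs in stress-high, 9 in myosin-poor and 4 in spots of neither quartile, of 63 in the section. The others, which were most of them, lay in spots of both quartiles, which this comparison leaves out. Without day 4 or without day 1 Il6 had too few UMIs for the test, and without day 7 it was not called (adjusted p = 0.066). Socs3 was not called without day 4, 7 or 14 (edgeR adjusted p 0.218, 0.182 and 0.0941). Macrophage genes summed to 403, 805, 592 and 205 CPM in stress-high and 634, 2170, 1615 and 1004 in myosin-poor spots, and neutrophil genes to 177, 22.8, 16.2 and 21.4 against 572, 231, 121 and 288. The myosin-poor spots were also shallower, with a median of 1581 to 5608.5 UMIs against 6038 to 8594, and the part of either in the result was not tested.

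Lcn2, Serpina3n, Osmr and Stat3 were not called in that comparison. Lcn2 had 251 CPM in stress-high and 160 in myosin-poor spots on day 1, a ratio of 1.57 (1.24 to 2.00), and 14.9 against 15.1 on day 4. On day 14 it ran the other way, with 2.97 against 14.6, and its log2 fold change over the 4 sections was 0.41 ± 0.35 (edgeR adjusted p = 0.401). Without day 14 Lcn2 was called higher in stress-high spots (log2 fold change 0.84, edgeR adjusted p = 0.0303). Serpina3n had 234, 114, 25.8 and 7.25 CPM in stress-high and 211, 233, 91.6 and 95.8 in myosin-poor spots (log2 fold change -1.14 ± 0.56, edgeR adjusted p = 0.148). It was thus level between the classes on day 1 and lower in stress-high spots on the later days. Without day 1, Serpina3n (log2 fold change -1.58, edgeR adjusted p = 0.0307) and Osmr (-0.68, adjusted p = 0.0278) were called lower as well. Stat3 had 135, 94.3, 95.4 and 74.1 against 148, 145, 131 and 85.3 CPM, lower in stress-high spots beyond counting error on days 4 (ratio 0.653, 0.542 to 0.786) and 7 (0.730, 0.599 to 0.892). Its fitted log2 fold change was 0.10 ± 0.14 (edgeR adjusted p = 0.628) and turned to -0.36 with total UMIs, so its direction depended on the scaling.

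Stress-high spots were also compared with spots in neither extreme quartile, a comparison that was chosen after seeing the data. Here 5 members were called higher in stress-high spots, beside 3.14% of all genes (365). Another 63 genes (0.542%) were lower, 3.68% in either direction, and with total UMIs 1244 were higher and 26 lower. Osmr had 73.1, 27.7, 32.7 and 13.5 CPM in stress-high spots and 21.1, 13.7, 16.5 and 7.27 in the others, a log2 fold change of 0.91 ± 0.21 (edgeR adjusted p = 0.0252). Its ratio was above 1 beyond counting error in every section, between 1.86 and 3.47. Socs3 had 59.8, 13.2, 8.08 and 1.65 against 10.9, 2.94, 4.21 and 1.13 CPM (log2 fold change 1.52 ± 0.39, edgeR adjusted p = 0.0439). Lcn2 had 251, 14.9, 3.85 and 2.97 against 69.8, 5.01, 1.91 and 1.98 (log2 fold change 1.21 ± 0.32, edgeR adjusted p = 0.0464), and only days 1 and 4 differed beyond counting error. Il4ra had 76.9, 40.5, 39.2 and 9.56 against 19.7, 13.7, 19.7 and 6.89 CPM (log2 fold change 1.01 ± 0.25, edgeR adjusted p = 0.0357). Hp had 22.8, 27.7, 19.6 and 1.98 against 3.19, 8.50, 4.21 and 1.70 CPM (log2 fold change 1.55 ± 0.38, edgeR adjusted p = 0.0388). For both genes the days 1, 4 and 7 differed beyond counting error and day 14 did not. Serpina3n had the ratios 2.68, 9.08, 3.64 and 2.74, all above 1 beyond counting error, but was not called (edgeR adjusted p = 0.112). Stat3 too had ratios above 1 beyond counting error in all 4 sections, from 1.33 to 1.70, and was not called (log2 fold change 0.34, edgeR adjusted p = 0.147). None of the 5 was called without day 1, without day 4 or without day 7, where 219, 4 and 8 genes were called in all. Neutrophil and macrophage genes also had UMIs in stress-high spots, as given above. Their level in spots of neither quartile is not given here, and their part in these calls was not tested.

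**Figure D4:**
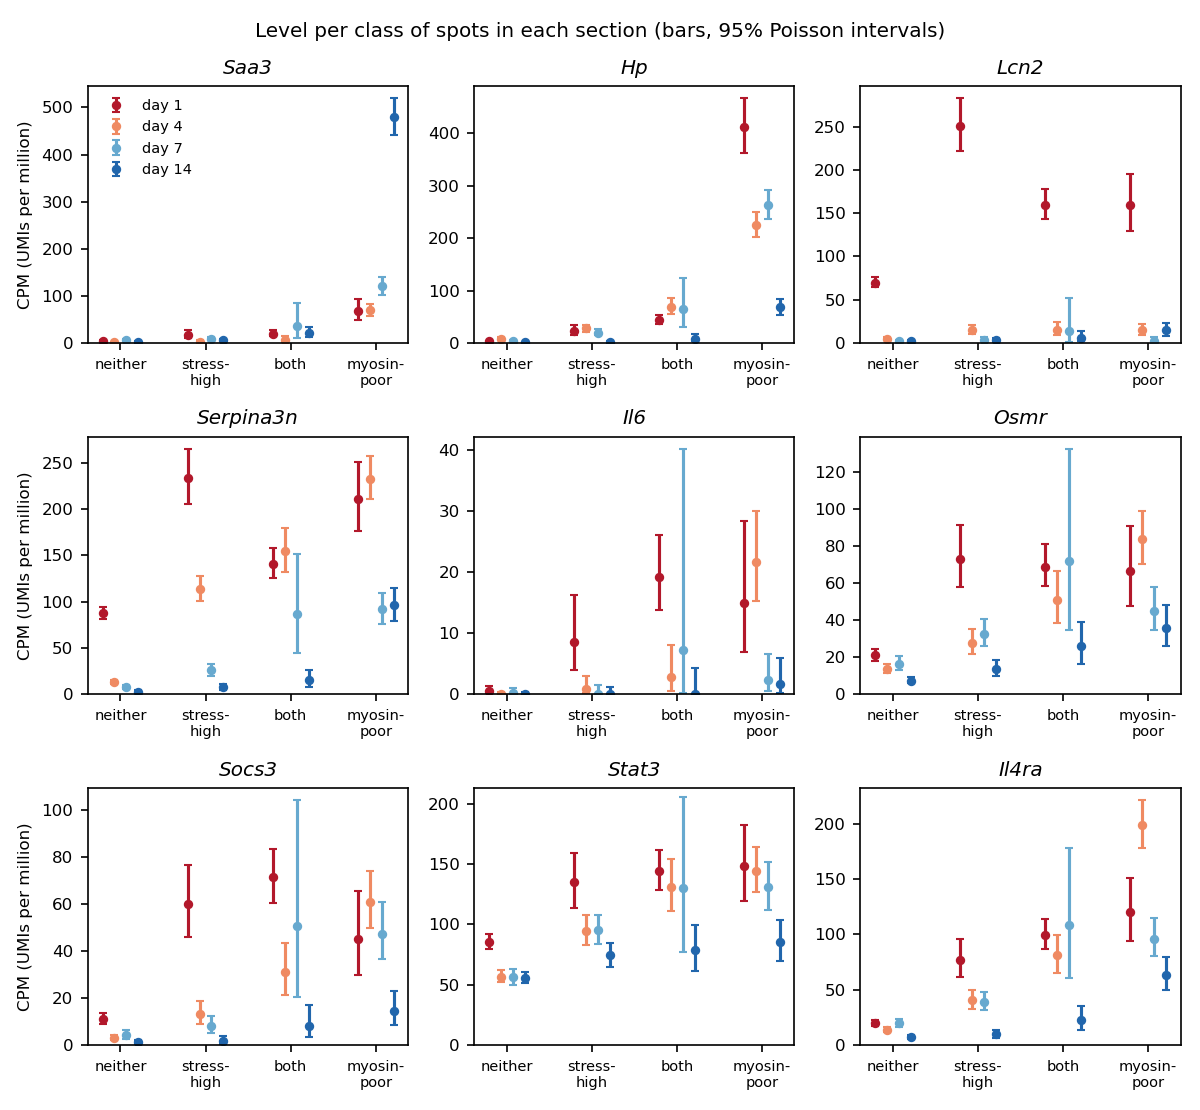
Level of each member in CPM (y axis, starting at 0) in the 4 classes of spots (x axis; stress-high and myosin-poor hold the spots that lie in 1 of the 2 extreme quartiles only) in the section of each day, with exact Poisson 95% intervals. Saa3 and Hp stand out in myosin-poor spots (479 on day 14 and 413 on day 1), whereas Lcn2 on day 1 is highest in stress-high spots (251).

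The members also differed in the markers they lay beside. For each list of cell type markers, the level of a member in the decile of spots richest in that list was set against its level in all other spots of the section, as a description, since the deciles of different lists share spots. Lcn2 encodes a protein of neutrophil granules, and the counts here are of its mRNA and not of the protein. On day 1 the mRNA level in the decile richest in neutrophil genes was 1.05 times that of the other spots (95% interval 0.846 to 1.28). In macrophage-rich and fibroblast-rich spots the ratio was 1.45 (1.21 to 1.73) and 1.64 (1.38 to 1.95). On day 1 Lcn2 UMIs were thus spread widely, over 35.3% of spots, and the share of spots fell to 1.24% on day 7. Such shares depend on depth. With spots of at least 1300 UMIs brought down to that depth, they were 11.4% and 0.397%.

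Hp on day 1 lay mostly in few spots. The decile of spots richest in adipocyte genes (Adipoq, Plin1, Cidec, Cfd and Lep, of which Lep was at 0) held 67.4% of its UMIs, a ratio of 21.3 (17.2 to 26.5). Of that list Cfd had 522 UMIs on day 1 and Adipoq, the next, 79. The fibroblast-richest, neutrophil-richest and macrophage-richest deciles of day 1 held 49.9% (ratio 11.9), 43.5% (9.23) and 38.7% (7.17) of the Hp UMIs. With the 12 spots of at least 10 adipocyte UMIs removed, an alternative added after seeing the data, the day 1 level of Hp was 15.6 instead of 32.9 CPM. On day 7 the adipocyte ratio was 0.777 (0.527 to 1.11), and Hp lay in macrophage-rich and fibroblast-rich spots, with ratios of 19.4 and 21.2. The comparison of myosin quartiles was as large for Hp without the adipocyte spots (log2 fold change 4.56, edgeR adjusted p = 1.14e-06).

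Saa3 lay mostly in macrophage-rich spots on day 14. The macrophage-richest decile, 208 spots, held 87.4% of its UMIs at 1673 CPM against 5.40 elsewhere, a ratio of 310 (246 to 395). The decile of spots with the lowest Myh6 and Myl2 share held about as many, 580 of 659 UMIs at 1899 CPM. The fibroblast-richest decile held 57.4% (ratio 72.9, 62.3 to 85.4). The neutrophil-richest and mesothelial-richest deciles held 62.5% (ratio 19.4, 16.5 to 22.8) and 64.6% (ratio 18.6, 15.8 to 21.9), although 61 and 66 of their 208 spots had no UMI of the list. A single spot held 68 Saa3 UMIs. On day 1 the macrophage ratio was 5.34 (3.68 to 7.65) and the level in those spots 47.6 CPM. Macrophage-rich spots of day 14 were shallow, with a median of 1265 UMIs.

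Il6 on day 4 had 25 of its 41 UMIs in the decile of spots richest in neutrophil genes, a ratio of 19.3 (9.91 to 38.7), and on day 1 13 of 63 (ratio 3.12, 1.55 to 5.82). The neutrophil gene with most UMIs on day 4 was Clec4d, with 282 against 109 on day 1. All other genes of that list had fewer UMIs on day 4 than on day 1. On day 4 Il6 was also higher in the fibroblast-richest (7.04, 3.41 to 13.9) and endothelial-richest deciles (4.14, 1.81 to 8.66). Its macrophage, mesothelial and adipocyte ratios (2.27, 0.747 and 0.752) lay within counting error. Serpina3n on day 1 had a ratio of 1.14 (0.933 to 1.37) in neutrophil-rich spots, near that of Lcn2. In fibroblast-rich and macrophage-rich spots of day 1 its ratio was 3.26 (2.86 to 3.71) and 2.17 (1.87 to 2.50). On day 4 its ratios in neutrophil-rich, fibroblast-rich and macrophage-rich spots were 3.87 (3.32 to 4.50), 4.28 (3.67 to 4.98) and 4.10 (3.48 to 4.81).

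**Figure D5:**
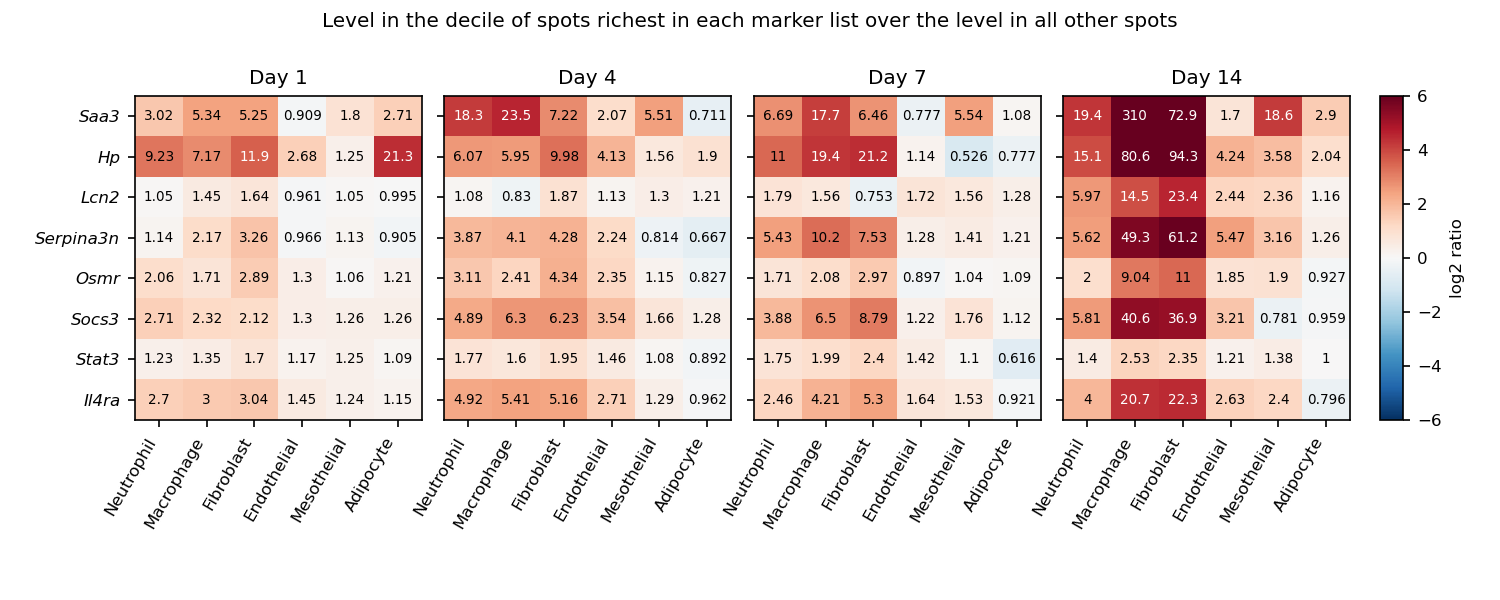
Ratio of each member's level in the decile of spots richest in a marker list (x axis) to its level in all other spots of the section, by day; colour is the log2 ratio, which stops short of the largest ratios, and the printed number is the ratio itself. Il6 is left out for its low counts. Lcn2 on day 1 is near 1 for neutrophil genes (1.05), Hp on day 1 is highest for adipocyte genes (21.3), and Saa3 on day 14 reaches 310 for macrophage genes.

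Genes with the most similar pattern were found over 32 values, the 4 sections by the 4 myosin and the 4 stress quartiles, by the Pearson correlation of log2(CPM + 1) with 4769 genes. The values share spots and sections, so the correlations are descriptions. Lcn2 was most like Lrg1 (0.94), another acute phase gene, then Flot1 and Gstp1. Socs3 was most like Sbno2 (0.98) and Ifitm3 (0.98), and Sbno2 was also first for Serpina3n (0.92). Osmr was most like Ifitm3 (0.97), Cd63 and Msn, and Il4ra was most like Fxyd5 (0.99), Arpc1b and S100a11. For Stat3 these were Mvp (0.96) and the transcription factor genes Junb (0.95) and Fosl2 (0.94). For Il6 they were Ranbp1 (0.94), Pcna and Txn1, for Hp Gm2a (0.94), Arrb2 and Igsf8, and for Saa3 the immunoglobulin genes Igkc (0.85) and Igha (0.82) and then Trf. Among the members, Socs3 with Osmr, Osmr with Il4ra and Socs3 with Il4ra were closest (each 0.95), and Saa3 with Lcn2 the least alike (0.06).

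Other genes of the pathway are given from lists chosen with results of these data known. Among 10 ligands of the IL-6 family, 5 had enough UMIs for the test, Il6 only through the myosin-poor quartile. Of these 5, 4 with Il6 among them were called higher and 1 lower in the myosin-poor quartile. This and the counts for the other lists stand beside the 27.6% of all genes that were higher and the 25.0% that were lower, and no list was tested against other genes. Il11 had 16.6, 3.90, 0.323 and 0.0636 CPM on days 1, 4, 7 and 14 and a log2 fold change of 4.93 ± 0.42 (edgeR adjusted p = 1.43e-06). Most of its UMIs, like those of Il6, were in the sections of days 1 and 4. Clcf1 also rose (3.23), and Ctf1, which encodes cardiotrophin 1, fell (log2 fold change -1.21, edgeR adjusted p = 0.0209).

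Of the 10 receptor genes, 9 were tested, and 6 were higher and 1 lower in the myosin-poor quartile. Il6st, the shared subunit gp130, had 121, 123, 126 and 75.3 CPM on days 1, 4, 7 and 14 and a log2 fold change of 0.37 ± 0.13 (edgeR adjusted p = 0.0297). Il6ra, the specific IL-6 receptor, and Il2rg, the chain paired with Il4ra in the IL-4 receptor, rose by 1.46 and 1.37 on the log2 scale, and Lifr, the receptor for leukemia inhibitory factor, was lower (edgeR adjusted p = 0.000526). Of 10 kinase and STAT genes, 6 were higher and 1 lower, among them Jak2 (0.87), Jak3 (1.03), Stat2 (1.02) and Tyk2 (0.99), with Stat5b lower (-0.48). Of 13 inhibitors, 7 were higher and 2 lower. Ptpn6 (2.37), Socs2 (0.91) and Socs1 (1.83) rose beside Socs3, and Cish fell by -1.39 (edgeR adjusted p = 0.00064) with Ptpn11 (-0.59).

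Of 18 known STAT3 targets, 4 of them members, 14 were higher and 2 lower in the myosin-poor quartile. The protease inhibitor gene Timp1 had a log2 fold change of 4.97 ± 0.51 (edgeR adjusted p = 1.09e-05), and Junb (1.80) and Bcl3 (2.80) rose too, whereas Pim3 (-1.18) and Vegfa (-0.89) fell. In stress-high against myosin-poor spots, 3 of the 5 ligands (Il6 among them), 2 of 9 receptors, 3 of 10 kinases or STATs, 4 of 13 inhibitors, 8 of 18 targets and 4 of 16 acute phase genes were lower, beside 13.6% of all genes. Il11 (log2 fold change -2.83, edgeR adjusted p = 0.0048), Ptpn6 (-1.58, adjusted p = 0.000355), Timp1 (-2.27, adjusted p = 0.00279) and Cd14 (-1.63, adjusted p = 0.000925) were among them. Lifr (0.81), Cish (1.39), Ptpn11 (0.72) and Vegfa, which encodes a growth factor for vessels, were the 4 genes of these lists that were higher.

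The comparison of stress-high spots with spots of neither extreme quartile was chosen after seeing the data. It called 4 genes in all without day 4 and 8 without day 7. With all sections, 8 of the 18 targets were higher and none was lower, beside 3.14% and 0.542% of all genes. They include the members Osmr, Socs3 and Il4ra, already given above, and Junb (1.17, edgeR adjusted p = 0.00169). Also higher was Mt2 among the acute phase genes (1.45, edgeR adjusted p = 0.00348). The part of other cell types in these calls was not tested.

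Of 35 acute phase genes, 16 had enough UMIs for the test, 10 were higher in the myosin-poor quartile and none was lower. Besides the 4 members they included Cd14 (log2 fold change 2.71), a receptor for bacterial lipopolysaccharide, and Mt2 (2.16), a metallothionein. Many genes of the classical liver response were at or near 0. Saa1 and Crp had 1 UMI each in all 4 sections, and Saa2, Saa4 and Apcs had none. Lrg1 had 212, 45.8, 38.2 and 36.7 CPM on days 1, 4, 7 and 14 and was not called between the myosin quartiles (log2 fold change 0.49 ± 0.34, edgeR adjusted p = 0.247).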

How the data were processed

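The authors deposited UMI counts per gene and spot, made with Space Ranger 1.3.0 on mm10 per the labels and not normalized; Seurat 4.1.1 is also named. The 9 members and all lists were chosen with earlier results of these data known. Counts were summed per section and quartile or class of spots (16 libraries per fit, 9 residual degrees of freedom), and edgeR 4.0.16 (limma 3.58.1, R 4.3.3) with TMM, robust quasi-likelihood fits and the section as a block tested 11615 genes of at least 100 UMIs, without the 6 ranking genes. Sections are the replicates, and the test asks what they share. Each SE was taken from the fold change and the F statistic. In simulated counts with 200 genes set to change by 1 on the log2 scale, the myosin comparison called 129 of the 198 that passed the filter, with 3 false among 132 calls, and the class comparison 91 of 196, with 4 false among 95. The simulated dispersion, the spread beyond counting error, was below the fitted 0.0361 and 0.0444 of these comparisons. All other genes were simulated without a difference, so errors from scaling were not covered. Ratios have exact conditional 95% intervals and shares of spots exact Clopper-Pearson intervals. Sections shared 1572 to 1918 spot barcodes pairwise, as slides carry the same set, and no profile was identical. Of the pathway lists, the 4 genes of smallest p among those called were named in each direction, Il6st, Osm, Lrg1, Reg3b and the genes at or near 0 being chosen after their values were seen. For each member, the 3 most similar genes were named. One gene that this rule names is not reported here. Spot positions and images were not used. Alternatives were DESeq2 1.42.0, total UMIs in place of TMM, other filters and rankings, spots of other tissue removed, and each section left out.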

Additional observations from a re-analysis of the deposited data

Results flagged for a closer look

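Some members ran in opposite directions on different days beyond counting error, with 1 section a day, so that the difference between days was not tested. Between the highest and lowest stress quartile, Saa3 had a ratio of 5.61 on day 1 and 0.136, 0.132 and 0.0507 on days 4, 7 and 14. Serpina3n had ratios of 4.96, 1.56, 0.519 and 0.318 in the order of days. Socs3 had 16.7 on day 1 and 0.304 on day 7, and Il4ra had 8.08 on day 1 and 0.769, 0.636 and 0.459 on days 4, 7 and 14. Il6 had 46.7 on day 1, with 50 UMIs against 1 (95% interval 8.01 to 1882), and 0.243 on day 4, with 5 against 20. Between stress-high and myosin-poor spots, Lcn2 had a ratio of 1.57 on day 1 and 0.203 on day 14, the latter from 9 UMIs against 18. What the stress ranking picked also differed between days: fibroblast genes in the lowest stress quartile were at 1136 CPM on day 1 and 13027 on day 4. They were higher still on day 7. On day 14 fibroblast genes there were below their day 4 level. Their part in the result was not tested.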

How the results depend on the processing

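The fits paired groups of spots within each section through the section block. Counts of members include Il6 where it was tested. Under the alternatives of the myosin comparison, 138 member values kept their call, 11 lost it and none reversed. The number of genes called ran from 3223 (genes of at least 1000 UMIs, fewer tested) to 7997 (total UMIs), and without the block Lcn2 (adjusted p = 0.329), Serpina3n (0.0523) and Stat3 (0.117) were not called. Leaving out 1 section gave 4080 to 5815 genes and 7 to 8 members there, 10 to 564 genes and 0 to 4 members for the stress quartiles, 881 to 3318 and 3 to 6 for stress-high against myosin-poor spots, and 4 to 614 and 0 to 4 for stress-high spots against neither.

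For the stress quartiles, DESeq2 called 165 genes and 1 member, genes of at least 1000 UMIs gave 62, no block 5 and cuts into 3 groups 16. The log2 fold changes near 0 changed sign: Il6 (-0.57) and Socs3 (-0.21) with DESeq2, Il4ra with total UMIs (0.022), and Serpina3n and Il4ra without the block (0.60 and 0.12), without spots under 1000 UMIs (0.079 and 0.075), with 3 groups (0.082 and 0.12) and with the ranking without Nppb (0.0075 and 0.034). Serpina3n was at 0.047 without the hemoglobin filter. With 1 section left out, Serpina3n ran from -0.41 to 0.36, Socs3 from -0.93 to 0.69 and Il4ra from -0.68 to 0.32.

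For stress-high against myosin-poor spots, total UMIs gave 5113 genes, at least 1000 UMIs 1974 genes and 3 members, and no block 373 genes and 2 members. Lcn2 turned to -0.069 and Stat3 to -0.36 with total UMIs, Stat3 to -0.10 with at least 1000 UMIs and to -0.018 with 3 groups, and Lcn2 ran from -0.12 to 0.84 with 1 section left out. For stress-high spots against neither, total UMIs gave 1270 genes, at least 1000 UMIs 132 genes and 2 members, at least 10 UMIs 3 members, 3 groups 10 genes and 0 members, and edgeR without the block 0 genes and 0 members (1130 genes at an unadjusted p under 0.05). No hemoglobin filter left 1 member called, and removing spots under 1000 UMIs or skeletal muscle spots 2 members each. Total UMIs moved the median of all genes there from 0.01 to 0.30. The causes were not tested.

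Averaging the share per spot in place of summing UMIs moved 25 of 36 CPM values beyond their counting interval, as for Saa3 on day 14 (117 instead of 41.9). Leaving the hemoglobin filter out moved 4 of the 36, Saa3 on day 14 among them. Removing adipocyte-rich spots or spots under 1000 UMIs moved 1 each. Il6 on days 7 and 14 and Lcn2 on day 7 rest on few UMIs, 1 mouse a day leaves no error between mice, and only effects shared by the sections could be called.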

Other observations

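The members differed in how evenly their UMIs were spread over spots. In the 5% of spots with most UMIs of the gene lay 26.2% of Stat3 UMIs on day 1 and 25.7% on day 14, close to the same share on both days. For Lcn2 it was 35.9% on day 1 and for Serpina3n 33.1%. Rare genes reach high shares by counting alone, so only genes of like UMI number are compared. On day 1 the share was 82.4% for Hp (393 UMIs) and 43.3% for Osmr (436 UMIs).

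The regenerating islet-derived gene Reg3b, known to respond to oncostatin M in the heart, had 30 of its 33 UMIs in the day 1 section (2.51 CPM) and was too rare for the test. The pentraxin gene Ptx3 had 20.1 CPM on day 1 and 1.74, 2.69 and 0.891 later, and was higher in the myosin-poor quartile (log2 fold change 3.72 ± 0.53, edgeR adjusted p = 5.1e-05). Of the metallothioneins, Mt2 fell from 420 CPM on day 1 to 42.4 on day 7.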
